A study of Arabidopsis thaliana with 20 samples.

Results

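The CBF regulon is the best studied branch of the cold response of Arabidopsis thaliana. Here 10 genes of it and of the wider cold response were followed through 7 lists of open chromatin. They are the transcription factors CBF1, CBF2 and CBF3, the cold-regulated effector genes COR15A, COR15B, COR47, RD29A, KIN1 and KIN2, and the zinc finger factor ZAT12. They were listed by name, by no threshold on their peaks, but with earlier results of these data known, and are 10 of the 27444 protein-coding genes on the nuclear chromosomes. For each gene every DNase I peak was counted that overlapped the gene itself or the 1000 bp upstream of its annotated start by at least 1 bp.

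In the cold, bHLH factors such as ICE1 and calmodulin-binding CAMTA factors switch on the CBF genes, which encode AP2/ERF proteins also called DREB1. CBF proteins bind the C-repeat or dehydration-responsive element, with the core CCGAC, in front of COR genes. The COR products are hydrophilic proteins that shield membranes and enzymes from freezing and water loss, and the same promoters carry elements for abscisic acid (ABA) and are also used in drought and salt stress. ZAT12 is a C2H2 zinc finger protein that is induced by cold, high light and oxidative stress. None of the conditions below is a cold treatment.

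DNase I-seq sequences the short fragments that the nuclease releases from accessible chromatin, and a peak is a place where such fragments pile up. All groups were whole seedlings aged 7 days of 1 Col-0 line, UBQ10:NTF::ACT2:birA, in which a nuclear tag and a biotin ligase, each under a broadly active promoter, allow nuclei to be captured (INTACT). The light series held seedlings kept dark and dark-grown seedlings moved to light for 30 min, for 3 h or for 24 h of the light cycle. The other groups grew in a long-day cycle (LD, 16 h light at 22 °C and 8 h dark at 20 °C) and had a heat shock of 30 min at 45 °C, a light spray with 0.5% ethanol and 3 h of waiting (spray control), or no treatment (LD control); the dark group had the same temperature cycle. Each condition had 1 library, so no difference below has a replicate check, and no test or error between replicates can be given. In whole seedlings, a site open in fewer cells and a site less open in each cell cannot be told apart.

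The 7 lists held 26712 (24 h light) to 34637 (LD control) nuclear peaks, nearly all 150 bp wide. The authors' signal per peak had a list median of 148 (dark) to 1036 (spray control). It is therefore given below only as a percentile, the share of the peaks of the same list with an equal or lower signal, and percentiles of different lists are shown side by side without reading a change from them. A peak missing from a list is one that the authors' threshold did not pass. A gained peak is a peak of the first-named library that overlaps no peak of the second by at least 1 bp, and a lost peak is the reverse.

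The sequences printed here show the CCGAC core under peaks of the effector genes. They come from the RefSeq TAIR10.1 genome and run 5′ to 3′ along the gene, with capitals marking CCGAC, the ABA element core ACGTG, the G-box CACGTG (which holds ACGTG on both strands) or CGCG, the core bound by CAMTA factors. Peaks wholly upstream are printed whole, and of a peak that reaches into the transcript only 30 bases around 1 element. The COR15A peak is chr2:17712361-17712510 (minus strand, heat shock list), and the RD29A peak is chr5:21240501-21240650 (plus strand, heat shock list). Sites within peaks near a gene start are chr2:17710121-17710150 of COR15B (minus strand), chr1:7086749-7086778 of COR47 (minus strand), chr5:5209802-5209831 of KIN1 and chr5:5211769-5211798 of KIN2 (both plus strand), all from the LD control list, and chr5:21240681-21240710 of RD29A (plus strand, spray control list).
COR15A: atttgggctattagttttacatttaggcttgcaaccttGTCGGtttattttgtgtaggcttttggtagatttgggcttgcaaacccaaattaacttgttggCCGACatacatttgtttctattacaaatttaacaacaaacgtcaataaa
RD29A: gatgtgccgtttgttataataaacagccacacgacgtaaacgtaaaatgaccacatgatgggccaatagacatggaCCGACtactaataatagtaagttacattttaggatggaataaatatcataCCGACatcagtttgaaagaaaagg
RD29A spray control site: ctaCCGACatgagttccaaaaagcaaaaaa
COR15B site: acaacttgatggCCGACctcttttttcttt
COR47 site: tggcccacatgaCCGACatctatgcttaaa
KIN1 site: gataaatagctaCCGACataaggcaaaact
KIN2 site: aataaaaagctaCCGACataaggcaaaaat

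None of the 8 regions of the CBF genes held CCGAC, which 11.4% of all merged regions did, so few were to be found in 8. The pair that follows shows a G-box ahead of a nearly identical stretch in CBF1 and CBF2. G-boxes also stood in regions of COR15A, KIN1 and KIN2, and in none of CBF3. The CBF1 site is chr4:13022821-13022850 and the CBF2 peak is chr4:13016321-13016470, both on the minus strand and from the LD control list.
CBF1 site: gctatgtactataCACGTGtcattcacaga
CBF2: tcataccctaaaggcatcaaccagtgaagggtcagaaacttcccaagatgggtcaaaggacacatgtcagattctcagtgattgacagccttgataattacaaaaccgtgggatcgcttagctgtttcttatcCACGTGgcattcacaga

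Counted over the 25 separate peak regions of the 10 genes, in 150 bp around each midpoint and on both strands, CCGAC stood in 9, against 11.4% of all 47780 merged regions of the 7 lists. All 9 lay at effector genes, and each of the 6 effector genes had at least 1. These genes were listed by name as COR genes, in front of which CCGAC is known, so this count was not independent of the choice. The ABA core ACGTG stood in 14 of the 25 regions, against 23.9% of all regions, and the G-box CACGTG in 7, against 8.23%. CGCG stood in 3, against 9.49%, and the evening element AAATATCT, which clock factors bind, in 2, against 2.06%. The 150 bp of the RD29A region at −1082 bp, with 1 evening element, lay outside the gene's window. So did those of the CBF1 region at 1311 bp, with 1 G-box. The regions differed little from all regions in base composition, with a median GC content of 38.0% against 36.7%. These are letter matches and do not show that a factor was bound.

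Most of the 10 genes had a peak in every condition. A peak was listed for 8 of 10 genes in the dark (64.9% of all genes), 8 with 30 min of light (66.5%), 9 with 3 h (71.9%) and 9 with 24 h (64.4%). In the long-day libraries it was 9 after heat shock (72.7%), 10 in the spray control (72.9%) and 10 in the LD control (74.2%). The 8 genes with a peak in all 7 lists, where 57.2% of all genes had one, were the 3 CBF genes, COR15A, COR47, RD29A, KIN2 and ZAT12. KIN1 and COR15B were the exceptions. The mean number of peaks per gene was 1.4 in heat shock to 1.9 in the spray control, against 0.92 in 24 h light to 1.2 in the LD control over all genes, whose windows were longer (median 2304 bp for the 10 genes and 3078 bp for all). The median number was 1.0 for the 10 genes and for all genes in the light series and after heat shock. It was 2.0 in the spray control and 1.5 in the LD control, against 1.0 for all genes.

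**Figure D1:**
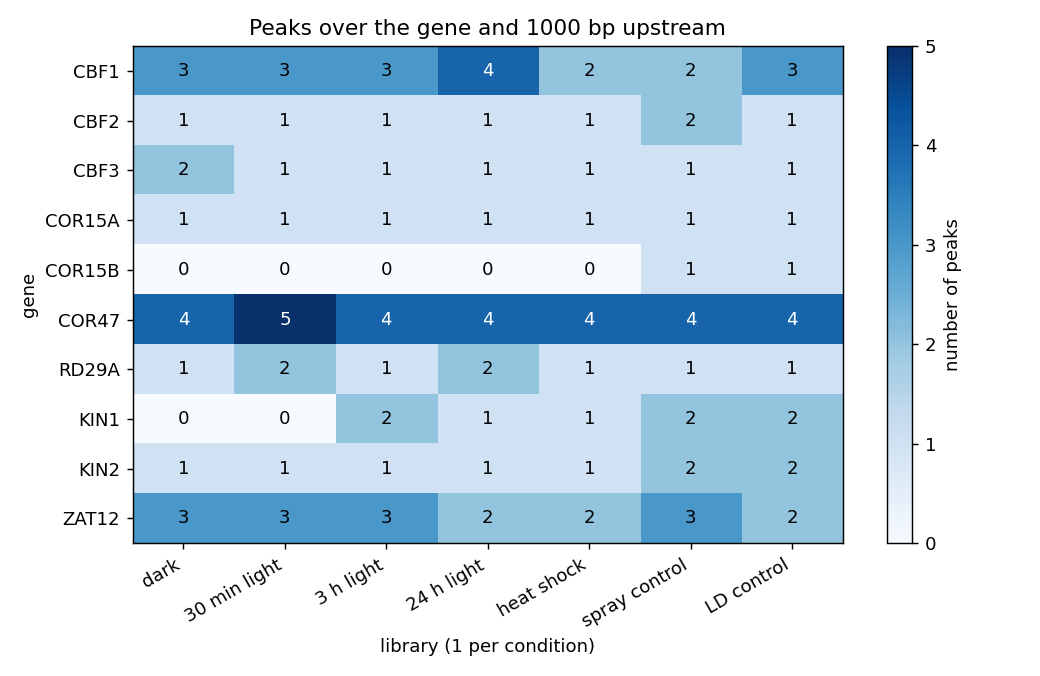
Number of DNase I peaks over each of the 10 genes and 1000 bp upstream (rows) in each of the 7 libraries (columns, 1 per condition), with the count written in each cell and shaded from 0 to 5. COR47 has 4 or 5 peaks throughout, COR15A has 1 throughout, COR15B has none outside the spray and LD controls, and KIN1 has none in the dark and after 30 min of light.

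The strongest peak of a gene ranged from the bottom to the top of its list, with COR15A, COR15B and KIN1 never above percentile 59.9. The median percentile of that peak over the genes with one was 87.4 in the dark, 87.8 after 30 min, 97.1 after 3 h, 94.0 after 24 h, 91.7 after heat shock, 92.0 in the spray control and 93.2 in the LD control. The same median over all genes with a peak lay between 53.7 and 62.8. Between 4 and 6 of the 10 genes had a peak above the 90th percentile, against 11.1% to 15.3% of all genes with a peak. The 25 regions were 13 upstream, 9 in the annotated 5′ UTR, 1 in a 3′ UTR and 2 past a gene's end, and none had its midpoint in coding sequence. The annotated start is the outermost transcript end, and it lies 149 bp (CBF2) to 1209 bp (COR47) before the coding start, so that a 5′ UTR peak is still ahead of the protein. Of the 25 regions 11 were in all 7 lists (44.0%), as were 38.6% of all merged regions.

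**Figure D2:**
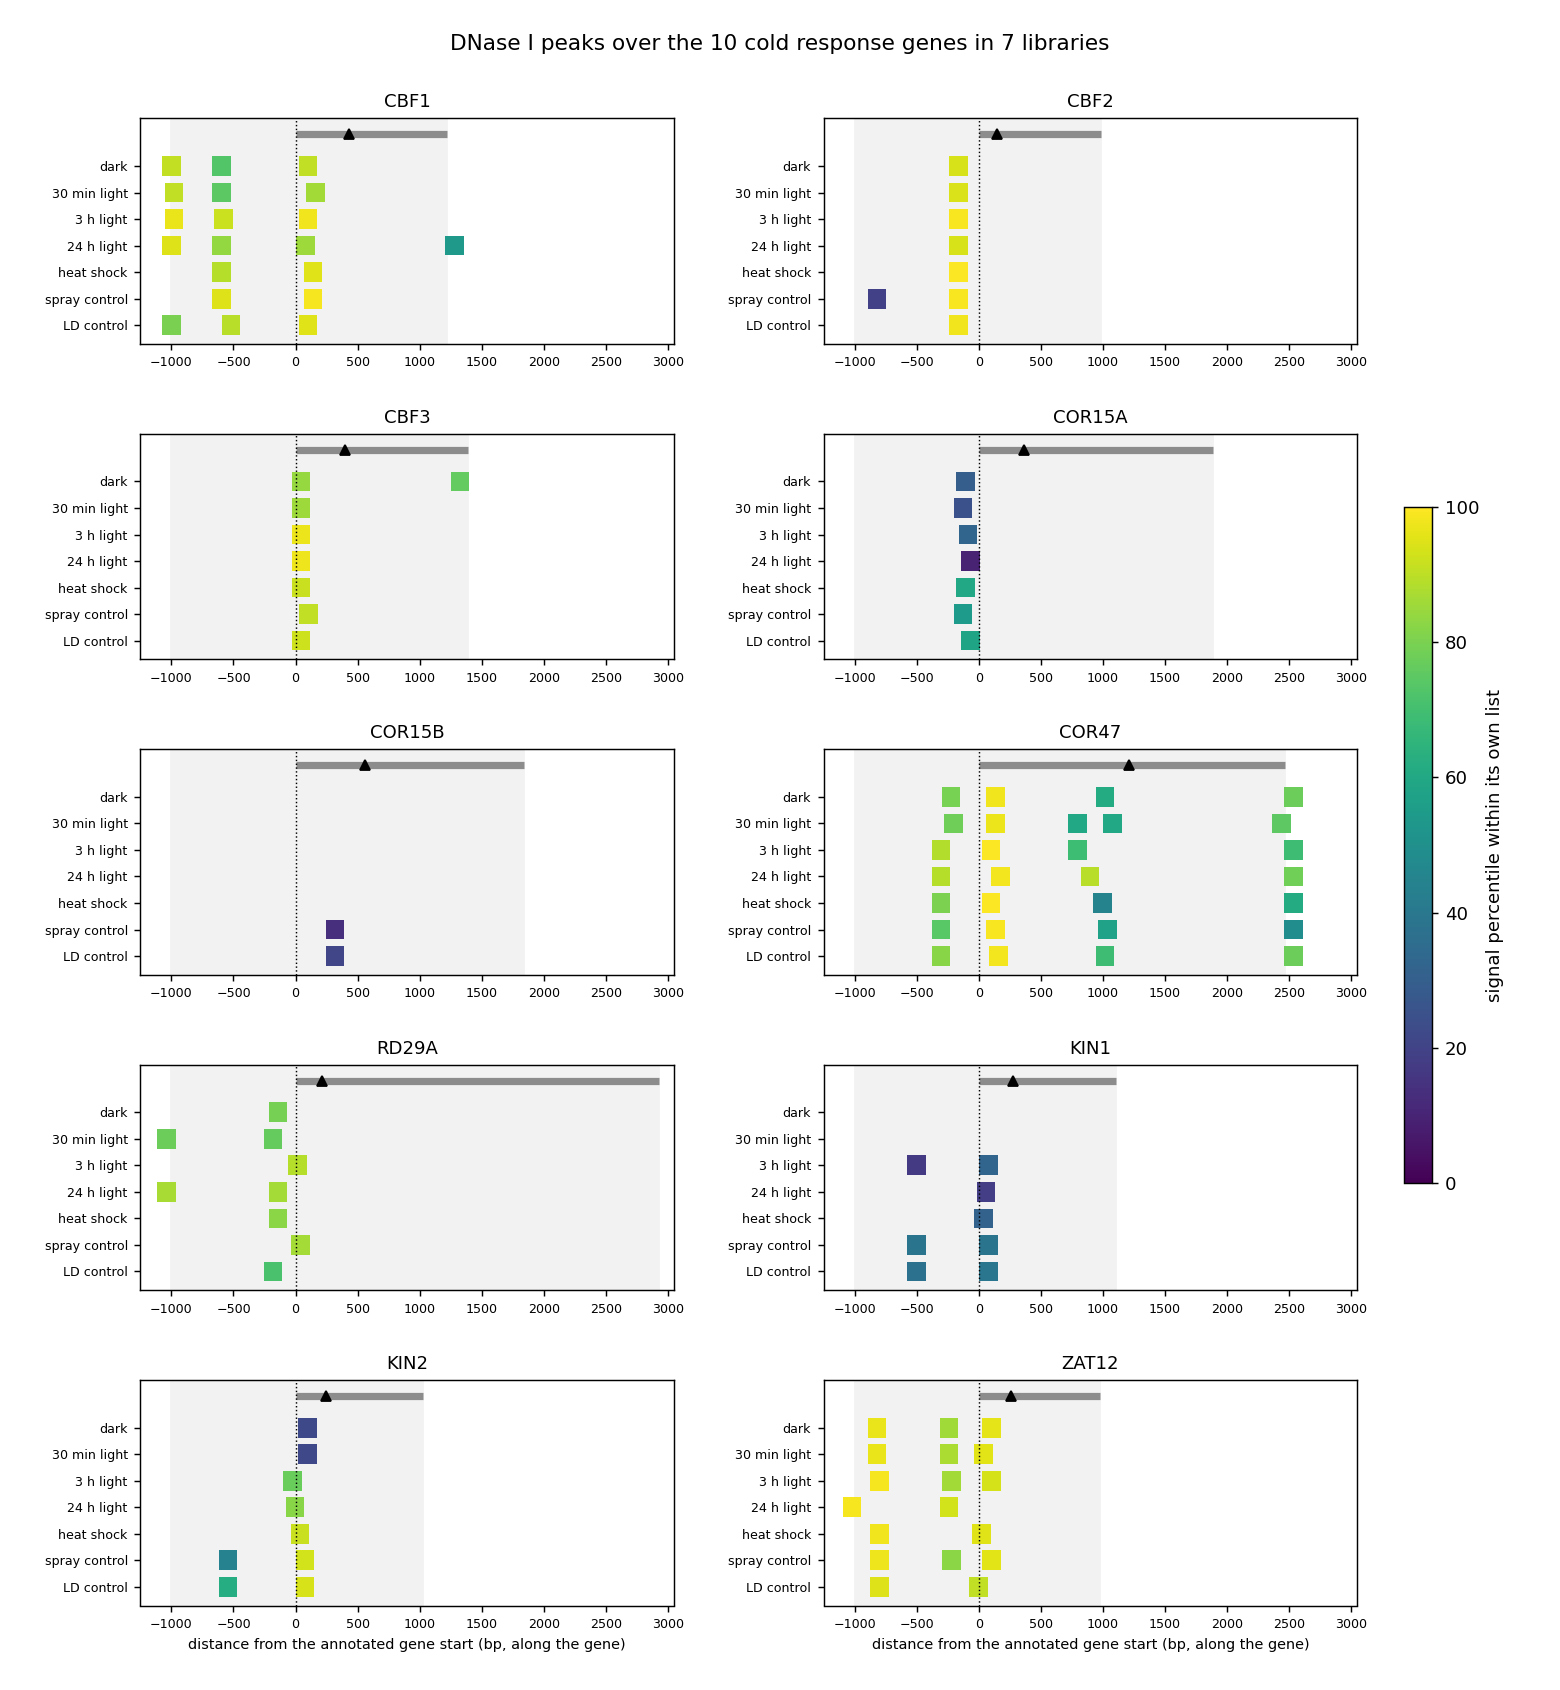
Position of every DNase I peak that touches the counted window (coloured boxes, drawn to scale) along each of the 10 genes in the 7 libraries (rows), in bp from the annotated gene start along the gene, with colour giving the percentile of the signal within the peak's own list. The grey bar is the gene, the triangle the coding start, the dotted line the gene start and the shaded band the window counted. The CBF2 peak at −160 bp sits in the same place in all 7 rows, while the RD29A peak lies upstream in 5 rows and over the start in 2.

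The 3 CBF genes lie in tandem on the minus strand of chromosome 4, CBF2 at 13015250 to 13016235, CBF3 at 13018010 to 13019400 and CBF1 at 13021780 to 13022996. Their coding sequences are 85.0% to 86.9% identical, but the 1000 bp upstream only 47.9% to 52.8%. Of the words of 36 bases in their windows 95.8% (CBF2) to 99.1% (CBF3) occur once in the genome, so most reads of that length could be placed on 1 copy.

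CBF2 (AT4G25470) had the most constant peak of the set. Its midpoint was at −160 bp, negative meaning upstream, with identical ends in all 7 lists. The percentiles were 93.9 in the dark, 94.5 after 30 min, 99.2 after 3 h and 94.0 after 24 h of light, and 99.3 after heat shock, 99.2 in the spray control and 97.8 in the LD control. That peak was thus above the 90th percentile of every list. The spray control alone listed a further, weak CBF2 peak at −820 bp, at percentile 19.1 of its list.

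CBF3 (AT4G25480, also DREB1A) had a peak over its start in every list but the spray control, where the peak lay just inside the transcript. The midpoint was at 45 bp in 6 lists and at 105 bp in the spray control. Its percentile was 84.0 in the dark, 85.2 after 30 min, 97.1 after 3 h and 97.6 after 24 h of light, and 91.5 after heat shock, 90.6 in the spray control and 92.5 in the LD control. A further CBF3 peak at 1325 bp, over the 3′ UTR and the gene's end, stood in the dark list alone, at percentile 75.8. The CBF3 peak regions held neither CCGAC nor a G-box.

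CBF1 (AT4G25490) had 2 to 4 peaks a list, against 1 or 2 at CBF2 and at CBF3. The peak nearest its start had its midpoint at 81 to 161 bp and lay wholly inside the transcript. It stood at percentile 90.4 in the dark, 86.1 with 30 min, 97.9 with 3 h and 85.2 with 24 h of light. After heat shock it stood at percentile 95.3, in the spray control at 98.8 and in the LD control at 95.0. A second region at −599 to −519 bp was also in all 7 lists, at percentile 72.8 in the dark up to 94.6 in the spray control. The third, at −999 or −979 bp, was in 5 lists and in neither the heat shock nor the spray control list, and its percentile ran between 80.0 (LD control) and 96.6 (3 h light). After 24 h of light CBF1 had a further peak past its end at 1281 bp, of which 11 bp fell in the window; the heat shock list held a peak in the same region that stopped short of the window.

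Among the effector genes, COR47 (AT1G20440, chr1:7084409-7086873, minus strand), a dehydrin that binds water and membranes, had the most peaks. It had 5 peaks after 30 min of light and 4 in each other list. In those other lists 1 of the 4 lay past the gene's end, with 2 bp in the window. The peak nearest the COR47 start, with its midpoint at 98 to 178 bp, lay wholly inside the transcript. It stood at percentile 98.0 in the dark, 97.2 after 30 min, 99.4 after 3 h, 98.3 after 24 h, 99.6 after heat shock, 99.1 in the spray control and 98.4 in the LD control. It was thus among the strongest peaks of every list, 138th of 32755 after heat shock. The 150 bp at the centre of that region held CCGAC 3 times. The other COR47 regions, at −302 to −202 bp, at 798 to 1078 bp and at the gene's end, were also in all 7 lists.

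**Figure D3:**
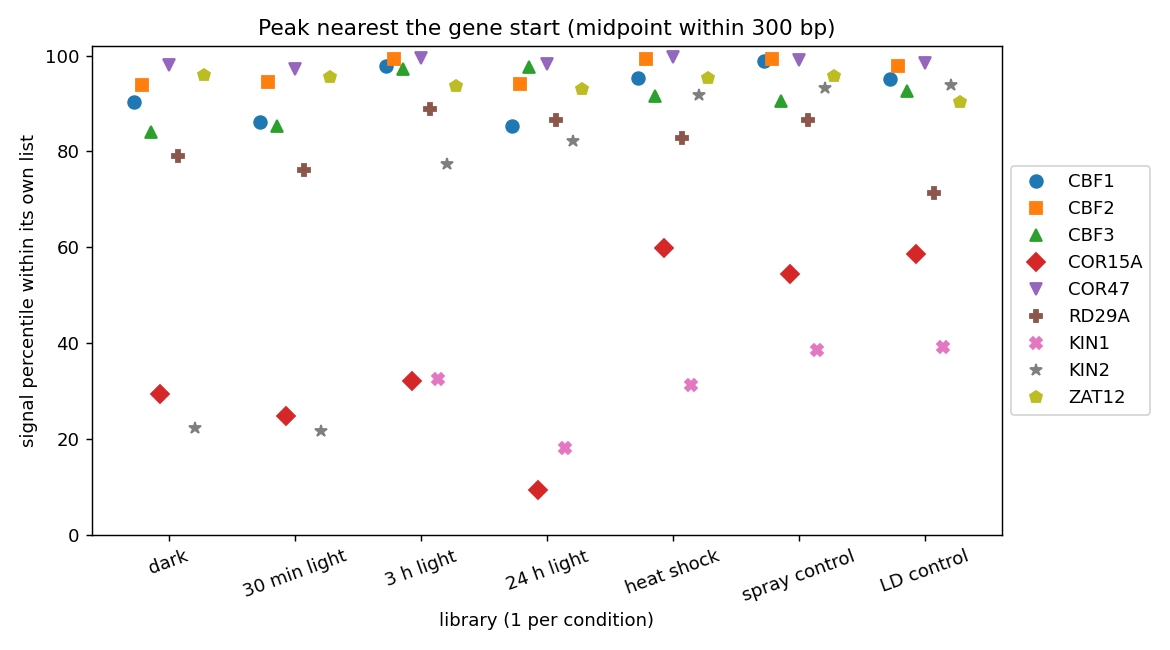
Signal percentile within its own list (vertical axis, 0 to 100) of the peak nearest the gene start, with its midpoint within 300 bp, for 9 genes (symbols) in 7 libraries (horizontal axis, 1 per condition). COR47 and CBF2 lie above 93 throughout, KIN1 and COR15A below 60, and KIN2 at 22.2 in the dark and 93.9 in the LD control; COR15B has no such peak. The ZAT12 point of 24 h light is its middle peak at −239 bp, since that list held no peak just past the ZAT12 start.

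RD29A (AT5G52310, chr5:21240717-21243644, plus strand), a hydrophilic protein gene widely used as a reporter of cold and drought, had its start peak in either of 2 adjacent places. It lay upstream at −182 to −142 bp in the dark (percentile 79.0), after 30 min (76.2) and 24 h of light (86.6), after heat shock (82.8) and in the LD control (71.4). It lay at 18 bp after 3 h of light (88.9) and at 38 bp in the spray control (86.5). The upstream peak of the heat shock list and the peak of the spray control list each held CCGAC 2 times, and the spray control peak also held ACGTG and CGCG once each. A farther region near −1042 bp was in all 7 lists, but reached into the window, by 34 bp, after 30 min and 24 h of light only.

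COR15A (AT2G42540, chr2:17710441-17712330) and COR15B (AT2G42530, chr2:17708593-17710433) are minus-strand neighbours that encode cryoprotective proteins of the chloroplast stroma, with coding sequences 82.8% identical. All words of 36 bases in both windows occur once in the genome. COR15A had 1 peak in each list, at −125 to −65 bp and of low to middling signal. Its percentile was 29.3 in the dark, 24.8 after 30 min, 32.1 after 3 h and 9.4 after 24 h of light, and 59.9 after heat shock, 54.5 in the spray control and 58.5 in the LD control. The 4 percentiles of the light series all lay below the 3 of the long-day libraries, but these lists differ in length and signal scale, and no change is read from them. COR15B, whose upstream window lies inside COR15A, had its only peak at 318 bp in the spray control (percentile 13.5) and the LD control (21.0), near the bottom of both lists.

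KIN1 (AT5G15960, chr5:5209717-5210826) and KIN2 (AT5G15970, chr5:5211719-5212743) are plus-strand neighbours that encode small, alanine-rich hydrophilic proteins. They are the most alike pair, at 95.0% identity in the coding sequence and 78.1% in the 1000 bp upstream. About 1 word of 36 bases in 20 in their windows is repeated elsewhere in the genome, since 95.0% for KIN1 and 94.8% for KIN2 occur once, so some reads may not have been placed uniquely.

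KIN1 had no peak in the dark or after 30 min of light. Its start peak was listed after 3 h (percentile 32.4) and 24 h of light (18.1), after heat shock (31.2), in the spray control (38.6) and in the LD control (39.1), at 38 to 78 bp. KIN2 had a start peak in all 7 lists, at percentile 22.2 in the dark, 21.7 after 30 min, 77.3 after 3 h, 82.2 after 24 h, 91.7 after heat shock, 93.3 in the spray control and 93.9 in the LD control. Its place differed, with the midpoint at 96 bp in the dark and after 30 min, −24 bp after 3 h and −4 bp after 24 h. It was at 36 bp after heat shock and at 76 bp in both controls. With at least 75 bp of overlap asked of a shared peak, KIN2 counted as gained and as lost against dark after 3 h and after 24 h. In the dark and after 30 min of light, KIN1 thus had no peak and the KIN2 peak was among the weaker ones of its list. The KIN2 start peak of the LD control held the G-box 3 times and that of KIN1 2 times, and each held CCGAC once.

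Both KIN genes also had a farther peak, and these 2 peaks are 86.7% identical. The KIN1 peak at −502 bp was listed after 3 h of light (percentile 17.0), in the spray control (38.6) and in the LD control (37.6). That of KIN2 at −544 bp was listed in the spray control (44.4) and the LD control (62.0) only. The LD control peaks are printed to show that KIN1 holds CCGAC there and KIN2 does not; they are chr5:5209141-5209290 and chr5:5211101-5211250, plus strand.
KIN1 far peak: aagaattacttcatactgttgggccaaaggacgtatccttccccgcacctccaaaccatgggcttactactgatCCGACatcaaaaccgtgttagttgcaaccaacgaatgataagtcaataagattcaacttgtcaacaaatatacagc
KIN2 far peak: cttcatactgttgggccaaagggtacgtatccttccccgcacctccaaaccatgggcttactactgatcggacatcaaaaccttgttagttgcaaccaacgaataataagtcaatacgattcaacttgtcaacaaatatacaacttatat

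ZAT12 (AT5G59820, chr5:24102814-24103794, plus strand) had strong peaks in every list. A peak within 101 bp past its start stood at percentile 95.9 in the dark, 95.6 after 30 min and 93.7 after 3 h of light, and at 95.3 after heat shock, 95.7 in the spray control and 90.4 in the LD control. A second, at −819 or −799 bp, was in the same 6 lists, at percentiles 94.8 (LD control) to 98.8 (3 h light). The 24 h light list held neither, and instead listed a peak at −1019 bp at percentile 98.8.

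A middle ZAT12 peak at −239 or −219 bp was present in the 4 lists of the light series (percentiles 85.6, 87.2, 86.3 and 93.1 from dark to 24 h) and in the spray control (82.8). It was in neither the heat shock nor the LD control list. The middle region and the one at −819 to −799 bp each held CGCG 2 times. The middle peak of the dark list, chr5:24102501-24102650 on the plus strand, is shown with its overlapping pair of CGCG. Beside it is a 30-base site with ACGTG in the spray control peak just past the start, chr5:24102900-24102929.
ZAT12 middle peak: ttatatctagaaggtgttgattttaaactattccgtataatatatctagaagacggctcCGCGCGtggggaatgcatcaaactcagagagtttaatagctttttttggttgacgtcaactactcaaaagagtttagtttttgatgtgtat
ZAT12 start site: cgtcactttccaCACGTctttggtccacac

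Heat shock was set against the LD control to ask which sites of these genes open or close after a brief, severe heat treatment. No gene of the 10 gained a peak, where 12.5% of all genes did, and 4 lost one, where 22.2% of all genes did. The lost peaks were those of CBF1 at −999 bp, COR15B at 318 bp, KIN1 at −502 bp and KIN2 at −544 bp. At the 4 genes the heat shock list thus lacked an outer or weak peak of the LD control. KIN1 and KIN2 kept a peak over the start, and CBF1 kept its peak just inside the transcript. The LD control peaks stood at percentiles 80.0, 21.0, 37.6 and 62.0 in that order of genes, and among peaks in the upper 50% of each list only CBF1 and KIN2 kept the call. With all lists cut to their 26712 strongest peaks, COR15B was no longer called in any comparison.

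Against the spray control, 1 gene of the 10 gained a peak after heat shock (15.2% of all genes) and 6 lost one (22.7%). RD29A counted in both directions, through its peaks at −142 bp after heat shock and at 38 bp in the spray control. Peaks were further lost at CBF2 (−820 bp), COR15B (318 bp), KIN1 (−502 bp), KIN2 (−544 bp) and ZAT12 (−219 bp). The comparisons with the LD control and with the spray control share the heat shock library and are not independent. Where peaks within 150 bp also counted as shared, the RD29A gain and the losses at RD29A and ZAT12 were no longer called.

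The controls themselves differed at these genes. In the spray control 3 genes gained a peak relative to the LD control (16.8% of all genes), CBF2 at −820 bp, RD29A at 38 bp and ZAT12 at −219 bp. A peak was lost at 2 (18.5%), CBF1 at −999 bp and RD29A at −182 bp. The CBF1 peak at −999 bp was thus missing from both the heat shock and the spray control list. With peaks within 150 bp counted as shared, CBF2 alone was left with a gain and CBF1 alone with a loss.

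The light series asks how chromatin changes when dark-grown seedlings green. After 30 min of light against dark, 1 gene of the 10 gained a peak (9.52% of all genes), COR47 at 798 bp, and 1 lost one (8.26%), CBF3 at 1325 bp. Neither was called where peaks within 150 bp also counted as shared. Every other peak of the 10 genes in either list overlapped a peak of the other.

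After 3 h of light against dark, 3 genes gained a peak (17.6% of all genes) and 3 lost one (8.87%). The gains were COR47 at 798 bp, RD29A at 18 bp, and both peaks of KIN1, at −502 and 78 bp. The losses were CBF3 at 1325 bp, COR47 at 1018 bp and RD29A at −142 bp, so that COR47 and RD29A counted in both directions through neighbouring peaks. KIN1 was the 1 gene that had no peak in the dark and had one after 3 h, and it was also the only call of the 10 genes left when peaks within 150 bp counted as shared.

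After 24 h of light against dark, 3 genes gained a peak (9.93% of all genes) and 2 lost one (14.6%). KIN1 gained its start peak at 58 bp, CBF1 the peak past its end at 1281 bp, and ZAT12 the peak at −1019 bp. CBF3 lost the peak at 1325 bp, and ZAT12 lost those at −819 and 101 bp. All 3 light comparisons use 1 dark library, so the loss at CBF3 in each of them is 1 peak of that library. The dark library compared with the LD control had 2 genes with a gained peak (10.4% of all genes), CBF3 at 1325 bp and ZAT12 at −239 bp, and 3 with a lost one (29.5%), COR15B at 318 bp, KIN1 at −502 and 78 bp and KIN2 at −544 bp. With peaks within 150 bp counted as shared, the ZAT12 gain and the CBF3 loss after 24 h and both gains of the dark library were no longer called.

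**Figure D4:**
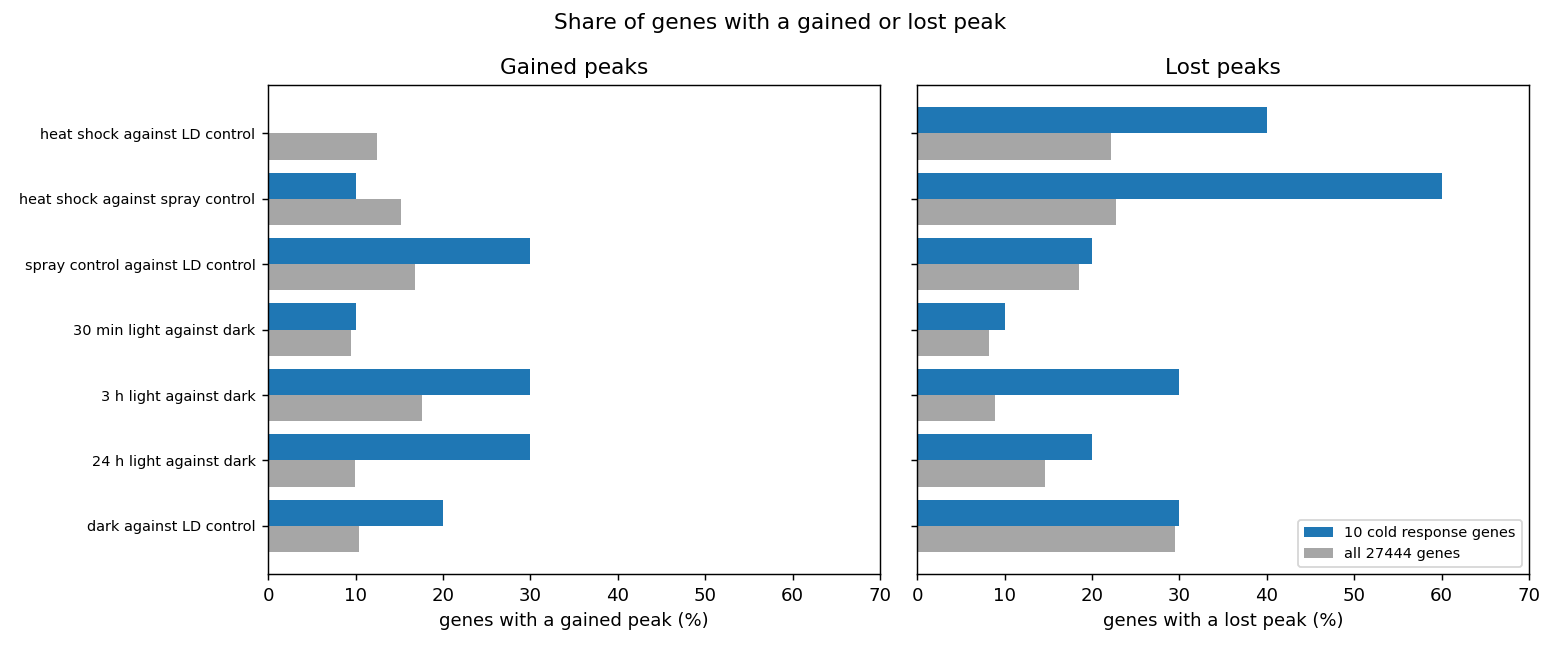
Share of genes in percent (horizontal axis, bars from 0) with a gained (left) or lost (right) peak in each of 7 comparisons (rows, 1 library a condition), for the 10 genes (blue) and for all 27444 genes (grey). Each gene of the 10 counts for 10%, and the blue bars run from no gain in heat shock against LD control to 6 genes with a loss in heat shock against spray control.

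Since 1 gene of 10 moves a share by 10%, no count of these genes or of the pathway lists is read as a difference from all genes. The pattern of 7 counts was shared by no other gene for CBF1 and COR47. KIN1 had the same 7 counts as 3 other genes, ABCB14 (AT1G28010), RUS5 (AT5G01510) and TTR1 (AT5G45050), and ZAT12 the same as 3, AT2G23690, PDK (AT3G06483) and AT5G14710. For the other genes the number with equal counts ran from 14 (RD29A) to 5234 (COR15A).

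The wider pathway was followed in 46 further genes in 4 lists. The 15 activators and repressors of CBF genes, among them ICE1, the CAMTA factors and the repressor MYB15, held 21 peaks in the dark, 21, 22 and 21 after 30 min, 3 h and 24 h of light, 24 after heat shock, 26 in the spray control and 26 in the LD control. The 6 other DREB factors held 7 in the dark, 7, 10 and 8 after light, 10 after heat shock, 11 in the spray control and 8 in the LD control. The 14 other cold-regulated and dehydrin genes held 24 in the dark, 25, 24 and 24 after light, 25 after heat shock, 25 in the spray control and 31 in the LD control. The 11 early cold transcription factors beside the CBFs held 21 in the dark, 23, 25 and 22 after light, 22 after heat shock, 22 in the spray control and 23 in the LD control.

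In heat shock against the LD control 6 of the 46 genes gained a peak (12.5% of all genes) and 10 lost one (22.2%), shares near those of all genes. Of the cold-regulated and dehydrin genes 6 of 14 (42.9%, against 22.2% of all genes) lost one. Against the spray control 3 of these 14 did (21.4%, against 22.7%), and some of the peaks lost against the LD control were missing from the spray control list too. Among the 6 were the dehydrin ERD10, which neighbours COR47, at 331 bp (percentile 54.9), and RCI2A and RCI2B. The last 2 are neighbours that encode small membrane proteins and share 1 lost peak (59.5). Against the LD control 2 of 15 CBF activators and repressors and 2 of 11 early cold factors lost a peak. None of the 6 other DREB factors lost a peak, in a list too small to set against 22.2%. DREB2A, a drought and heat factor, gained a peak at 1590 bp (39.3), DDF2 one at 881 bp (40.9). The DREB2A peak overlapped one of the dark list, and DREB2A had 3 peaks after heat shock, 5 in the spray control and 2 in the LD control. ICE1 gained a peak at −696 bp (50.6). RAV1 had a peak in the top percentiles in both libraries, at −313 bp after heat shock (98.7) and at −133 bp in the LD control (98.8), which did not overlap and so counted as a gain and a loss.

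Against the spray control 11 of the 46 gained a peak (15.2% of all genes) and 11 lost one (22.7%). MYB15, which represses CBF genes, lost its peak at 106 bp (percentile 84.5 in the spray control), and ERD10 lost peaks at 351 bp (63.8) and 1291 bp (29.8). The lost ERD10 peak at 1291 bp stood beside a heat shock peak at 1491 bp (22.4) that did not overlap it. GOLS3, a galactinol synthase of the raffinose pathway, gained peaks at −584 bp (53.7) and 836 bp (0.5). In spray control against LD control 9 gained (16.8% of all genes) and 11 lost a peak (18.5%). MYB15 gained the same peak at 106 bp there, and CBF4, a CBF paralogue known from drought, gained one at −275 bp (87.5) and lost one at −95 bp (88.5).

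After 30 min of light 5 of the 46 genes gained a peak (9.52% of all genes) and 3 lost one (8.26%). After 3 h it was 11 (17.6%) and 4 (8.87%), and after 24 h 8 (9.93%) and 8 (14.6%). CBF4 gained an upstream peak against dark at each time, at −635 bp (percentile 73.9), −615 bp (82.8) and −535 bp (73.0). HSFC1, a heat shock factor relative that is induced early in cold, did so at −851 bp (15.4, 44.4 and 60.4). After 3 h a peak was gained by 3 of 15 CBF activators and repressors, 3 of 6 other DREB factors, none of 14 cold-regulated and dehydrin genes and 5 of 11 early cold factors. Of the last, HSFC1 and MYB73 (1265 bp, percentile 21.6) had the strongest, and the peaks of the other 3 ranked lower in the list. Dark seedlings against the LD control gained a peak at 6 (10.4% of all genes) and lost one at 15 (29.5%) of the 46 genes, with ICE1 (−716 bp, 37.9) among the gains and RCI2A (−511 bp, 59.5) and GOLS3 (−664 bp, 58.1) among the losses.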

How the data were processed

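DNase I-seq libraries of 7 conditions had a single-end and a paired-end entry each, 14 samples in all, and the 2 peak files of each library were byte-identical, so each counted once. The 6 RNA-seq samples were not analysed here. Per the submitters' processing notes Bowtie 0.12.7, CASAVA 1.8.2 and TAIR10 were used; the caller of the peaks and its threshold were not given in the sources used here. Some samples of the series were subsampled in reads, without a label saying which. The deposited signal column is a whole number per peak with no stated normalization and was ranked within a list. The deposited −log10 p-value of a peak reaches 324 in the lists, where many peaks tie, and was not used for ranking. Read depth is unknown.

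Gene models were those of RefSeq for TAIR10.1. Moving the peaks by 5000 bp left 27.8% to 28.4% of midpoints in promoter windows (1000 bp before a gene start and 200 bp after it), against 57.6% to 61.7% in place, as a check of the build. The 474 organelle peaks of the spray control were left out. Overlaps were computed in Python 3.11.15 with numpy 2.4.6 and pandas 2.3.3, and the overlap code was tested on simulated peaks. Regions are overlapping peaks of all 7 lists merged. Identity is the number of matches over all columns of a global alignment, gaps included. The 10 genes, the 4 pathway lists, the motifs and the alternatives were chosen with earlier results of these data known. All 10 genes are named throughout; of the pathway lists at most 5 genes a direction and comparison, by signal percentile, are named, and genes with the same 7 counts only where there are 5 or fewer. The alternatives were another overlap or distance, the upper 50% of each list, lists of 26712 peaks, other windows and placing by midpoint.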

Additional observations from a re-analysis of the deposited data

How the results depend on the processing

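With at least 75 bp of overlap asked of a shared peak, the number of the 10 genes with a gain was 1 in heat shock against LD control, 2 in heat shock against spray control, 5 in 24 h light against dark and 4 in dark against LD control, and that with a loss was 2 after 30 min, 4 after 24 h and 6 in dark against LD control. With peaks within 150 bp counted as shared, gains were 0 (heat shock against spray control), 1 (spray against LD control), 0 (30 min), 1 (3 h) and 0 (dark against LD control), and losses 1 (spray against LD control), 0 (30 min), 0 (3 h) and 1 (24 h). In the upper 50% of each list losses were 2 in heat shock against either control and 1 in dark against LD control. In the promoter window gains were 0 (30 min) and 1 (dark against LD control), and losses 0 (30 min), 1 (3 h) and 1 (24 h). In the gene span alone gains were 0 in heat shock against spray control, 1 in spray against LD control and 1 in dark against LD control, and losses 1 in heat shock against LD control, 2 in heat shock against spray control and 0 in spray against LD control; the peaks counted over the 10 genes were then 8 (dark), 8 (30 min), 9 (3 h), 9 (24 h), 8 (heat shock), 10 (spray control) and 10 (LD control). With 500 bp upstream, 1 gene lost a peak in spray against LD control. All other counts stayed within 1.5 times the main one, those from lists of equal length and from placing by midpoint included. The causes were not tested, beyond the smaller windows and shorter lists themselves. Leaving out a replicate was not possible with 1 library a condition. No paired analysis was possible because the numbered samples of a condition are 1 library. Read depth is unknown. With lists of equal length the losses at COR15B were no longer called, nor the CBF2 gain and loss at −820 bp, while those at KIN1 and KIN2 were.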
